A study of Sus scrofa with 2 samples.

Results

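The insulin-like growth factor (IGF) system was examined in the longissimus dorsi muscle (LM) of Shaziling and Yorkshire pigs. Its members were taken from the deposited table as unigenes (assembled transcripts) whose match in the nr protein database carried a RefSeq accession of pig IGF1, IGF2, IGF1R, IGF2R or one of the binding protein genes IGFBP1 to IGFBP7. This rule gave 7 of the 65535 unigenes, and they belonged to 6 of the 11 genes. IGF1, IGF2, IGF2R, IGFBP2 and IGFBP6 had 1 unigene each and IGFBP4 had 2. No unigene was found by the rule for IGF1R, IGFBP1, IGFBP3, IGFBP5 and IGFBP7. Levels are given as RPKM (reads scaled to unigene length and library size), and each of the 7 unigenes reached 1 RPKM in at least 1 library.

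The muscle came from male pigs slaughtered when 25 days old. The Shaziling is a Chinese indigenous pig of the fat type, the Yorkshire is a lean pig that grows fast, and the 3 pigs named in the column of each breed were full sibs. No treatment is described. Each breed has a single column of reads, so the spread between pigs is unknown and every difference below sets 1 library against 1 library, with no replicate check. Breed and litter cannot be told apart. The breed follows the sample titles and the column names, and another field of the sample records gives the breed classes the other way round.

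IGF1 and IGF2 are secreted peptides that promote the growth and differentiation of muscle cells through the tyrosine kinase receptor IGF1R. IGF2R carries no kinase, binds IGF2 and takes it into the cell for degradation, and it also sorts lysosomal enzymes through their mannose 6-phosphate tags. The IGFBPs bind the ligands outside the cell, prolong their presence in tissue and blood, and limit or assist their access to the receptor. Skeletal muscle makes both ligands and several IGFBPs, and its connective tissue and vessels also make members of the system. In such bulk tissue, fewer cells of a type and less RNA per cell cannot be told apart.

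The RPKM values imply totals of 33949238 reads for Yorkshire and 28305925 for Shaziling, of which the IGF unigenes received 8785 and 7210. All listed unigenes together held 29537057 reads in Yorkshire and 20575805 in Shaziling, so a larger part of the Shaziling total lies on no listed unigene. In the Yorkshire library 46.4% of the total lay on 2 mitochondrial unigenes, against 11.8% in the Shaziling library. Among the 4816 unigenes with a pig gene symbol that reached 1 RPKM in at least 1 library, the median ratio of Shaziling to Yorkshire was 1.67 as deposited and 1.01 with totals that omit the mitochondrial unigenes. The 4 other scalings that were tried moved the log2 ratio of every unigene by -0.35 to -0.72. The position of each member among the 4816 unigenes is given below because a common factor does not change it. Of 11 skeletal muscle fibre markers, 4 had a unigene, and their levels summed to 5499 RPKM in Yorkshire and 13326 RPKM in Shaziling.

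The 2 ligands differed in level and in the comparison of the libraries. IGF2 (contig_1145, 2569 bp) stood at 88.7 RPKM in Yorkshire (7736 reads) and at 49.6 RPKM in Shaziling (3608 reads). It was the most abundant member in both, and its Yorkshire level was above that of 99.3% of the unigenes that reached 1 RPKM in at least 1 library. The Yorkshire level was 1.79 times the Shaziling level (95% confidence interval 1.72 to 1.86). This fold is below the 2 required for a call. With each of the 4 other scalings, the fold was between 2.28 and 2.94, and IGF2 was called higher in Yorkshire. Only 5.79% of the 4816 unigenes had a lower ratio of Shaziling to Yorkshire than IGF2.

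IGF1 (contig_26920, 975 bp), the main mediator of growth hormone action, stood at 1.99 RPKM in Yorkshire (66 reads) and at 2.1 RPKM in Shaziling (58 reads). The ratio of Shaziling to Yorkshire was 1.05, with an interval of 0.728 to 1.52. A difference was not detectable at this depth (exact binomial test of the reads, two-sided, adjusted p = 0.872). The direction depended on the scaling, since the ratio was between 0.641 and 0.825 under the 4 other scalings, without a call. IGF2 exceeded IGF1 in RPKM 44.5 times in Yorkshire and 23.6 times in Shaziling. Such a ratio within a library needs no scaling, and it was 0.531 times as large in Shaziling (interval 0.366 to 0.771).

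**Figure D1:**
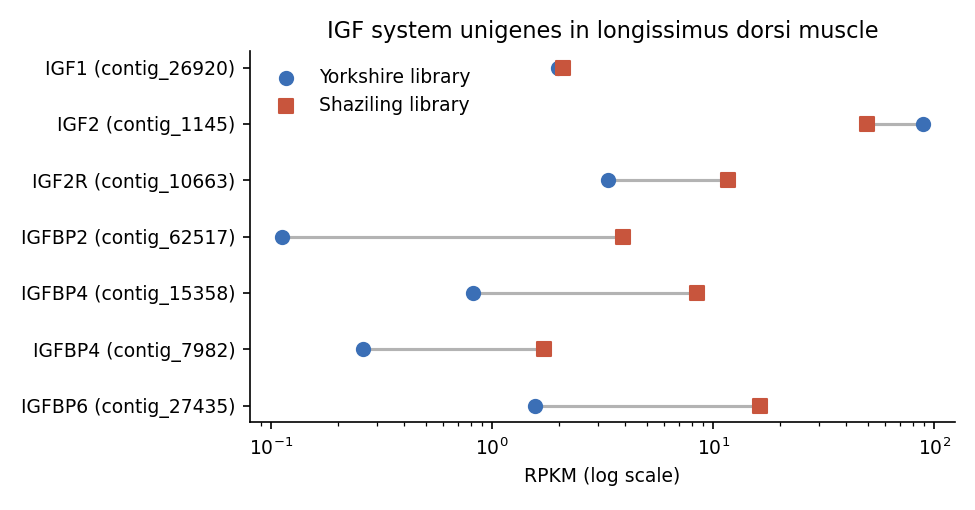
RPKM (horizontal axis, log scale) of the 7 unigenes of the IGF system in the Yorkshire library (circles) and the Shaziling library (squares), 1 value per library with no replicate error. As deposited, IGF2 lies highest in both libraries and is lower in Shaziling (49.6 against 88.7), the IGF1 values nearly coincide, and the receptor and the 4 binding protein unigenes are higher in Shaziling.

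IGF2R was the only receptor with a unigene. Its unigene (contig_10663, 7754 bp) stood at 3.33 RPKM in Yorkshire (877 reads) and at 11.7 RPKM in Shaziling (2557 reads). The Shaziling level was 3.5 times the Yorkshire level (95% confidence interval 3.24 to 3.78), and this fold was between 2.13 and 2.74 with the 4 other scalings, so IGF2R was called higher in Shaziling under all 5. A lower ratio was found for 77.4% of the 4816 unigenes. Relative to its ligand IGF2, the level of IGF2R was 0.0376 in Yorkshire and 0.235 in Shaziling, a change of 6.25 times (interval 5.73 to 6.82) that is independent of library scaling.

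The 3 binding protein genes with a unigene were all higher in Shaziling. IGFBP6 (contig_27435, 942 bp), which prefers IGF2 over IGF1 as its ligand, stood at 1.56 RPKM in Yorkshire (50 reads) and at 16.3 RPKM in Shaziling (435 reads). The ratio was 10.4 (95% confidence interval 7.77 to 14.3). A lower ratio was found for 94% of the 4816 unigenes.

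IGFBP4, which mostly inhibits IGF action until it is cut by the protease PAPPA, had 2 unigenes matched to the same protein. The longer one (contig_15358, 1731 bp) stood at 0.817 RPKM in Yorkshire (48 reads) and at 8.45 RPKM in Shaziling (414 reads), a ratio of 10.3 (interval 7.66 to 14.3). The shorter one (contig_7982, 453 bp) stood at 0.26 RPKM (4 reads) and 1.72 RPKM (22 reads), a ratio of 6.6 (interval 2.24 to 26.3). Both were called higher in Shaziling, and 93.9% and 89.7% of the 4816 unigenes had a lower ratio. The ratio of the longer unigene was 1.57 times that of the shorter, with an interval of 0.377 to 4.89, so no difference between the fragments was detectable at this depth.

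IGFBP2 (contig_62517, 1050 bp) is a binding protein abundant in fetal life and early growth. It stood at 0.112 RPKM in Yorkshire, with only 4 reads, and at 3.9 RPKM in Shaziling, with 116 reads. The ratio of 34.8 was the highest of the 7 unigenes, with an interval of 13.2 to 130. A lower ratio was found for 97.1% of the 4816 unigenes. In the pig assembly Sscrofa11.1, IGFBP2 and IGFBP5 are neighbours, as are IGFBP1 and IGFBP3, and IGFBP2 was the only 1 of these 4 genes with a unigene.

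Between the 2 libraries, no difference in fold was detectable between IGFBP6 and the longer IGFBP4 unigene. The level of IGFBP6 was 1.91 times that of this unigene in Yorkshire and 1.93 times in Shaziling, a change of 1.01 times (interval 0.649 to 1.57). With halved reads, which are explained below, this interval was 0.532 to 1.9. The change of IGFBP2 between the libraries was 3.33 times that of IGFBP6 (interval 1.19 to 13), but with halved reads the interval ran from 0.791 to 29.8. With the 4 other scalings the ratios of Shaziling to Yorkshire were lower, down to 21.1 for IGFBP2, 6.34 for IGFBP6, and 6.29 and 4.01 for the IGFBP4 unigenes, and these 4 unigenes were called under each of them.

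**Figure D2:**
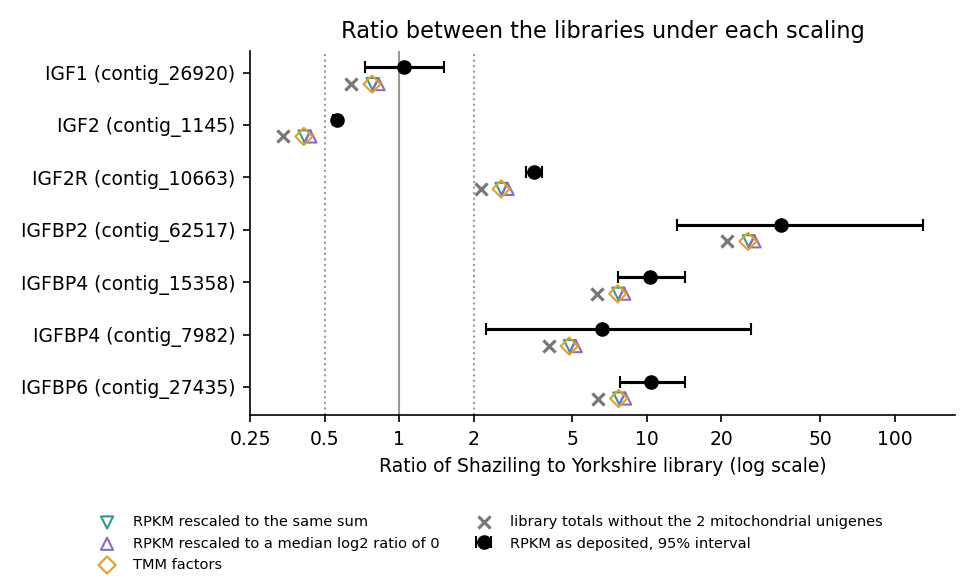
Ratio of the Shaziling to the Yorkshire library (horizontal axis, log scale) for the 7 unigenes. Black circles with bars give the RPKM as deposited with the exact 95% interval on the reads (counting error only), the other symbols the 4 other scalings, and dotted lines a fold of 2. The 4 binding protein unigenes and IGF2R stay above 2 under each scaling, IGF2 moves from above 0.5 to below it, and IGF1 moves from above 1 to below it.

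The order of the levels differed between the libraries. In Yorkshire it was IGF2, IGF2R, IGF1, IGFBP6, the longer IGFBP4 unigene, the shorter one and IGFBP2. IGF1 and IGFBP6 were not separable there, since their levels differed 1.28 times with an interval of 0.87 to 1.88, nor were the shorter IGFBP4 unigene and IGFBP2 (2.32 times, interval 0.432 to 12.4). In Shaziling the order was IGF2, IGFBP6, IGF2R, the longer IGFBP4 unigene, IGFBP2, IGF1 and the shorter IGFBP4 unigene. Only the lowest pair, IGF1 and the shorter IGFBP4 unigene, was not separable by its reads (1.22 times, interval 0.738 to 2.1). These intervals use the reads as deposited, and the order was not checked with halved reads. In Yorkshire the 2 IGFBP4 unigenes were only narrowly separable (3.14 times, interval 1.15 to 12).

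With a fold of 2 and a false discovery rate of 5% on the reads, 5 of the 7 member unigenes were called higher in Shaziling and 0 higher in Yorkshire. As background, the same rule called 25.2% of all unigenes for Shaziling and 7.68% for Yorkshire. Among the 5698 unigenes with a pig symbol, 36.9% were called higher in Shaziling and 3.26% higher in Yorkshire. When the totals omitted the mitochondrial unigenes, these shares for all unigenes were 11.2% and 18.2%, and 5 members were called higher in Shaziling and 1, IGF2, higher in Yorkshire. The random sampling test on RPKM values rounded to whole numbers called 0 members in either direction, and of all unigenes it called 0.545% for Shaziling and 0.227% for Yorkshire. On the log2(RPKM + 1) scale, the median difference of the members (Shaziling minus Yorkshire) was 1.55, against 0.24 over all unigenes and 0.47 over those with a symbol. Over the 4816 unigenes with a symbol that reached 1 RPKM, as all 7 members did, the median was 0.54. Of these 4816, 40% were called higher in Shaziling and 3.59% higher in Yorkshire. The members are few, 2 of them are fragments of the same gene, and no test was made on the list.

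**Figure D3:**
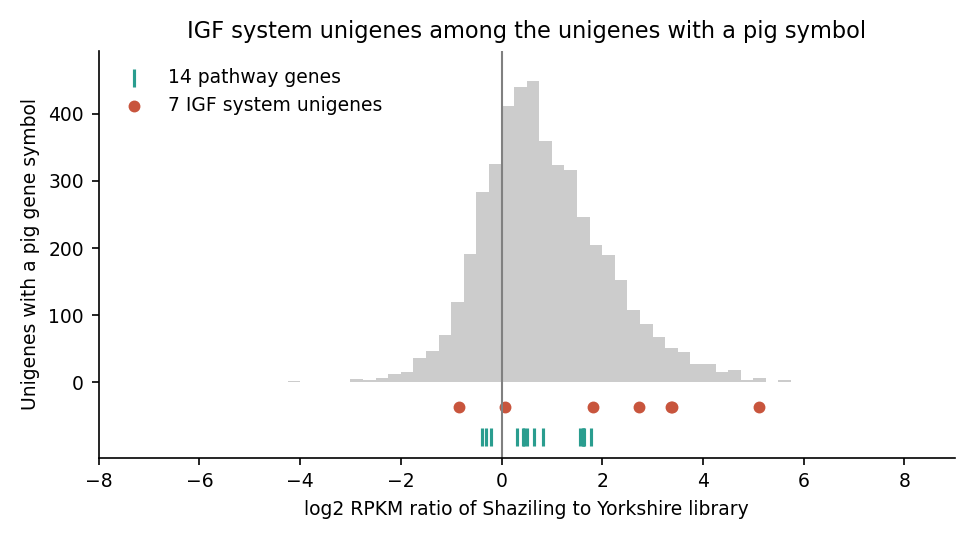
Distribution of the log2 RPKM ratio of Shaziling to Yorkshire over 4680 unigenes with a pig symbol, at least 1 RPKM in a library and reads in both (grey bars, 0.25 per bin), with the 7 IGF unigenes (circles) and the 14 pathway genes (ticks) drawn below the bars. The grey bars are centred above 0, IGF2 lies on their left side, and the binding protein unigenes lie in the right tail.

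The make-up of the system within each library does not depend on the scaling. As deposited, the levels of the 7 unigenes summed to 96.8 RPKM in Yorkshire and 93.8 RPKM in Shaziling. IGF2 made up 91.7% of this sum in Yorkshire and 52.9% in Shaziling. The share of IGF2R was 3.44% and 12.4%, and that of the 4 binding protein unigenes together was 2.84% and 32.4%. The summed level of the ligands was 32.9 times that of the binding proteins in the Yorkshire library and 1.7 times in the Shaziling library. These sums leave out the 5 genes without a unigene, IGF1R and 4 binding proteins, whose levels were not analysed here.

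**Figure D4:**
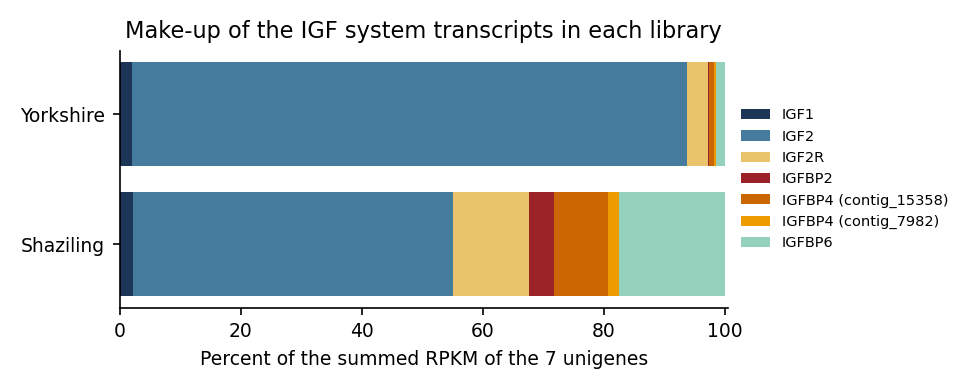
Percent of the summed RPKM of the 7 unigenes (horizontal axis) that each unigene took in the Yorkshire and the Shaziling library. IGF2 fills 91.7% of the Yorkshire bar and 52.9% of the Shaziling bar, where IGF2R, IGFBP6 and IGFBP4 take most of the rest.

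The unigenes differed in length relative to the coding length of their matched proteins, and which part of it each one holds was not examined. The number that follows each match was read as the length of the matched protein in residues, which the column heading does not state, and 3 times this number gives the coding length. By this measure the unigene of IGF2R was 104% as long as its coding region, IGFBP2 111% and IGFBP6 133%. IGF1, the longer IGFBP4 unigene and IGF2 were 237%, 223% and 473% as long, and exceeded the coding length by 564, 954 and 2026 bp. The shorter IGFBP4 unigene had only 58.3% of the coding length. The IGF1 unigene was matched to a protein of 137 residues, 1 of the 8 pig IGF1 proteins in the RefSeq list, and the table does not separate isoforms.

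**Figure D5:**
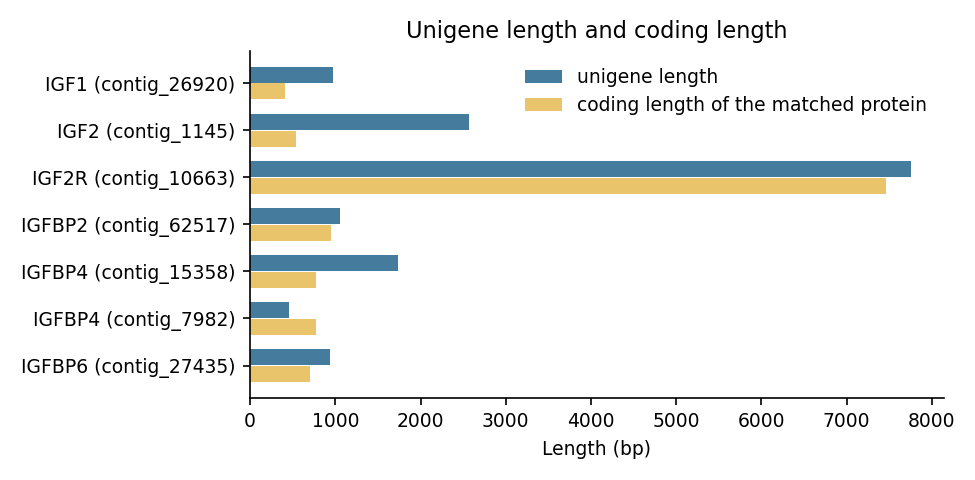
Length in bp (horizontal axis) of each of the 7 unigenes and the coding length of the protein it matched. The shorter IGFBP4 unigene (contig_7982, 453 bp) is shorter than its coding length, and the IGF2 unigene exceeds its coding length by 2026 bp.

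The reads were paired, and both reads of a pair may have been counted. Even numbers made up 71.5% of the Yorkshire counts from 1 to 20 and 56% of the Shaziling counts. With the reads of both libraries halved, the same 5 member unigenes were called, and the intervals of the ratios widened to 9.2 to 294 for IGFBP2 and 1.44 to 61.2 for the shorter IGFBP4 unigene. For IGF2R the interval was then 3.14 to 3.91, for IGFBP6 6.87 to 16.4, and for IGF2 the Yorkshire level was 1.69 to 1.89 times the Shaziling level. Halving both libraries alike leaves the ratios nearly as they were, so a difference in counting between the libraries was not tested.

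Of 53 other genes of growth hormone and IGF signalling, 14 had a unigene. Among these, 5 were called higher in Shaziling, 0 higher in Yorkshire and 9 were not called, and the share of 35.7% was close to the 36.9% of all unigenes with a symbol. Upstream of IGF1, STAT5A, a transcription factor that growth hormone activates, stood at 2.19 RPKM in Yorkshire (169 reads) and 6.81 RPKM in Shaziling (438 reads), a ratio of 3.11 (interval 2.6 to 3.73). JAK2, the kinase bound to the growth hormone receptor, stood at 2.41 and 2.07 RPKM (ratio 0.86, interval 0.674 to 1.09) and was not called. HTRA3, a secreted serine protease of a family that can cleave IGFBPs, stood at 1.85 and 5.43 RPKM (ratio 2.93, interval 2.21 to 3.93). HTRA1 of the same family was more abundant, at 21.5 and 29.4 RPKM, and was not called (ratio 1.37, interval 1.27 to 1.48). PAPPA, the protease of IGFBP4, and IGFALS, which holds the ligands in a circulating complex with binding proteins, had no unigene by the same matching.

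Downstream of the receptors, none of the 6 receptor substrates, adaptors and the insulin receptor (INSR, IRS1, IRS2, SHC1, GRB2, GRB10) had a unigene. AKT2, the kinase of insulin signalling in muscle, stood at 11.8 RPKM in Yorkshire (1322 reads) and 18.4 RPKM in Shaziling (1720 reads). Its ratio of 1.56 (interval 1.45 to 1.68) is below 2, and 46.5% of the 4816 unigenes had a lower one. Of the 5 genes of the mTOR branch with a unigene, 2 were called higher in Shaziling, beside 40% of the 4816 unigenes. MTOR (ratio 1.24), RICTOR (1.34) and RPS6KB1 (0.809) were not called. EIF4EBP1, a repressor of translation that mTOR inactivates, stood at 24.8 and 85.6 RPKM (ratio 3.45, interval 3.19 to 3.74), and TSC2, an inhibitor of mTOR, at 1.7 and 5.22 RPKM (ratio 3.07, interval 2.69 to 3.51). The MAP kinase kinase MAP2K2 stood at 8.49 and 26.2 RPKM (ratio 3.08, interval 2.79 to 3.4). The percent of the 4816 unigenes with a lower ratio was 77 for EIF4EBP1, 73.8 for TSC2 and 73.9 for MAP2K2. For STAT5A and HTRA3 it was 74.2 and 72.4. As deposited, none of the 3 genes of the FOXO list with a unigene was called. When the totals omitted the mitochondrial unigenes, EIF4EBP1 was the only 1 of the 5 called pathway genes still called (ratio 2.1). HTRA3, MAP2K2, STAT5A and TSC2 were then at 1.78 to 1.89, just under the fold of 2. IGF2R, at 2.13, was as close to that fold as EIF4EBP1 and was still called, as were the binding protein unigenes. FBXO32 of the FOXO list and RPS6KB1 were called higher in Yorkshire with these totals, at 2.14 and 2.03 times the Shaziling level. Of all unigenes, 11.2% were then called higher in Shaziling and 18.2% higher in Yorkshire.

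Markers of cell types that can make IGFs and IGFBPs were read in the same libraries. Of 8 fibroblast markers, 5 had a unigene, with a summed level of 724 RPKM in Yorkshire and 692 RPKM in Shaziling. As deposited, their ratios were 0.505 for LUM and 0.813 for DCN, proteoglycans of connective tissue. They were 1.04 for COL3A1 and 1.24 for COL1A2, which encode collagen chains, and 2.51 for FBLN1. In the same order, 4.46%, 15.7%, 25.2%, 34.1% and 67.2% of the 4816 unigenes, whose median was 1.67, had a lower ratio. Of these 5 only FBLN1 was called, beside 40% of the 4816 unigenes called higher in Shaziling. LUM was 1.98 times as high in Yorkshire, just under the fold of 2. Marker sums and calls are given as deposited only. The 4 other scalings multiply every ratio by 0.608 to 0.783. Of 8 endothelial markers, 3 had a unigene, with a summed level of 35.2 and 58.5 RPKM. VWF was called higher in Shaziling with a ratio of 20.2, whereas PECAM1 (1.36) and KDR (1.53) were not called. The erythroid markers (2 of 4 with a unigene) summed to 18.9 RPKM in Yorkshire and 212 RPKM in Shaziling, a ratio of sums of 11.2. HBB made up 18.5 and 207 RPKM of these sums. Smooth muscle and pericyte markers (2 of 6) summed to 38.8 and 33.9 RPKM, adipocyte markers (2 of 6) to 27.5 and 52.1 RPKM, and satellite cell markers (2 of 4) to 6 and 14.3 RPKM. The 1 myeloid marker of 5 with a unigene stood at 0.619 and 3.89 RPKM and was called higher in Shaziling. So were 3 of the 4 skeletal muscle fibre markers, 2 of 2 erythroid and 2 of 2 satellite cell markers. In the smooth muscle and pericyte list and in the adipocyte list it was 1 of 2 each. In every list 0 markers were called higher in Yorkshire. No marker with a unigene was at 0 in a library. The part of these cell types in the IGF results was not tested.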

How the data were processed

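RNA from the LM was sequenced by the authors as paired-end reads, giving 1 library per breed. They assembled the reads into contigs with CLC Genomics Workbench and these into unigenes with CAP3, matched the unigenes to nr with BlastX and deposited whole-number read counts (program not given in the sources used here) and RPKM values made with Qualimap. The deposited column names list 3 pigs a breed, and pooling is not described. The submitters' processing notes also name CASAVA 1.8, TopHat2 2.0.6 and the mouse build mm10, with no role. A separator is missing in the header line, and columns were assigned in the order of its names. All columns of values per sample were used.

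Members were found through a list of pig RefSeq proteins (assembly Sscrofa11.1), which matched 5698 of the 17152 unigenes with a RefSeq accession. Matches to proteins of other species or to accessions outside that list stay without a symbol, and the table lists fewer unigenes than the study assembled, so a gene without a unigene here is not shown to be unexpressed. Members and lists were chosen with earlier results of these data known. The same list gave which genes neighbour each other, and no coordinates or sequences are shown.

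With 1 library per breed, edgeR and DESeq2 could not be fitted. A call needed a 2-fold ratio of RPKM values together with an adjusted p of 0.05 or less (exact binomial, two-sided, on the deposited counts over all 65535 unigenes), which compares 2 libraries and not breeds. Intervals are exact (Clopper-Pearson, or conditional for ratios between members), at 95%, and cover counting error only. Log2 differences used a pseudocount of 1, which understates low unigenes. The scalings tried were the same RPKM sum, a median log2 ratio of 0 over unigenes at 10 RPKM and above in each library, TMM (edgeR 4.0.16) and totals without the 2 mitochondrial unigenes. Other thresholds, pseudocounts, filters, choices of unigene and a rewritten random sampling test of DEGseq were also tried. Halving the reads was added after the data were seen. Named genes are all members and, of the pathway list, those called and the AKT genes and receptor substrates, with the unigene of highest mean RPKM for each. PAPPA, IGFALS, JAK2, HTRA1, MTOR, RICTOR, RPS6KB1 and FBXO32, and the marker genes named beside the members, were chosen after their values were seen. The scripts were tested on simulated data. The tools were Python 3.11.15 with scipy 1.17.1 and pandas 2.3.3, and R 4.3.3.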

Additional observations from a re-analysis of the deposited data

How the results depend on the processing

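The 5 calls of members higher in Shaziling were kept under the 4 other scalings, folds of 1.5 and 3, a false discovery rate of 0.01, a minimum RPKM of 1 and halved reads. The random sampling test on RPKM values rounded to whole numbers called 0 of them and 1 pathway gene higher in Shaziling, against 0.545% of all unigenes. This test took the rounded RPKM values as counts, so IGF2R, with 877 and 2557 reads, entered with its 3.33 and 11.7 RPKM rounded. The cause of the difference in calls was not tested. IGF2 was the 1 member called higher in Yorkshire under each of the 4 other scalings and with a fold of 1.5. The log2 difference of IGF1, 0.05 as deposited, was -0.23 with the same RPKM sum, -0.18 with a median log2 ratio of 0, -0.24 with TMM and -0.48 without the mitochondrial unigenes. The median log2 difference of the members (1.55) was 1.15, 1.22, 1.17 and 0.99 in the same order, 2.33 and 1.66 with pseudocounts of 0.1 and 0.5, and 1.84 with reads summed per gene or the longest unigene per gene. Without the mitochondrial unigenes in the totals, 1 of the 14 pathway genes was called higher in Shaziling and 2 higher in Yorkshire (FBXO32 and RPS6KB1, named after their values were seen). With these totals, 11.2% of all unigenes were called higher in Shaziling and 18.2% higher in Yorkshire. No paired analysis was possible because each breed has 1 library, and no replicate could be left out. Depth limits IGF1, IGFBP2 and the shorter IGFBP4 unigene most, and an RPKM under 0.0884 (Yorkshire) or 0.106 (Shaziling) at 1 kb stands for fewer than 3 reads.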
